A study of Homo sapiens with 6 samples.

Results

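The levels of 10 genes of the unfolded protein response were compared in T24 cells, a human bladder cancer line: the sensors ERN1, EIF2AK3 and ATF6, the transcription factors XBP1, ATF4, DDIT3 and ATF3, and the feedback genes PPP1R15A, PPP1R15B and TRIB3. They were taken by gene symbol, 10 rows of a table of 58735 genes. All 10 passed a filter of a mean of at least 0.5 FPKM, as did 14658 genes in all. FPKM stands for fragments per kilobase of exon, divided by a library size that is given below. RNA sequencing of total RNA gave 3 libraries labelled sgOTUD1, with the genotype given as OTUD1 knockout, and 3 labelled sgNC, which carry an empty vector as negative control. Both groups are the same cell line in the same medium, and the labels do not say whether the cells are 1 clone or a pool, or whether replicates were separate cultures, so every error and p-value covers only the spread among these 6 libraries, which could be technical. The 10 genes were chosen by their function and by the fold changes of this comparison, which were already known. Their values are therefore a description, given with no test of their own.

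OTUD1 encodes a deubiquitinase, and its transcript was no lower under the sgOTUD1 label, at 17.0 ± 0.83 FPKM, against 14.7 ± 0.83 FPKM in sgNC libraries (SD, n = 3 each; log2 fold change 0.20, limma adjusted p = 0.0167). The two-sided exact permutation p was 0.1, the smallest that 3 against 3 libraries allow. The limma call ended without sgNC replicate 1 or without sgOTUD1 replicate 2 (log2 fold change 0.17 in both cases). It also ended with median-ratio rescaling (0.071), with TPM (0.061) and with the first of the length corrections described below (0.022), and the sign turned with the second (-0.062). This level is not that of a reduced transcript, so directions below refer to the labels. A transcript level does not show whether the protein was lost, which was not tested. All fold changes were taken between means of log2(FPKM + 1). The libraries held 16697370 to 17191933 reads in genes. The library size behind the deposited FPKM, recovered from the values, differed from these reads. It was 17490600 to 17980800 in sgNC libraries, against 16697370 to 17004704 reads in genes. In libraries labelled sgOTUD1 it was 16238000 to 16654300, against 16965127 to 17191933 reads in genes. Compared with scaling to reads in genes, this raised the log2 fold changes of expressed genes. All 8 markers of bladder epithelial cells on the list used here were above the filter, with a summed level of 4040 to 4296 FPKM in libraries labelled sgOTUD1 and 3397 to 3683 FPKM in sgNC libraries. Of 15 markers of other cell types, 4 were at 0 in every library. Fibroblast markers summed to 7.12 to 7.32 FPKM in libraries labelled sgOTUD1 and 9.502 to 10.1 FPKM in sgNC libraries, endothelial markers to 0.752 to 0.902 FPKM and 2.52 to 2.69 FPKM, and leukocyte markers to 0.416 to 0.599 FPKM and 1.04 to 1.37 FPKM in the same order of groups. The part of such cells in the results was not tested.

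The unfolded protein response is the reaction of a cell to misfolded protein in the lumen of the endoplasmic reticulum (ER). IRE1, encoded by ERN1, cuts a short intron out of XBP1 mRNA so that an active transcription factor is made. PERK, encoded by EIF2AK3, phosphorylates the translation factor eIF2, which slows protein synthesis and favours translation of ATF4, a step shared with other eIF2 kinases as the integrated stress response. ATF6 moves to the Golgi, where proteases release its transcription factor domain. ATF4 drives DDIT3, whose product CHOP promotes cell death under lasting stress. All 3 sensors are switched on as proteins, so a transcript level does not measure their activity.

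Some of this control is written in sequences that a table of reads per gene cannot follow. The stretch removed by IRE1 is shown because the FPKM of XBP1 adds its spliced and unspliced forms. It is 26 bases long, at positions 570 to 595 of an unspliced GENCODE 29 transcript of XBP1 (chromosome 22), and is missing from 2 other transcripts of the gene. Capitals mark the removed bases. The transcripts alone allow a shift by a few bases, and the placement between the repeated CAG triplets was used.

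XBP1 intron: agCACTCAGACTACGTGCACCTCTGCAGca

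Promoter sequences are shown for 5 genes that were higher in the libraries labelled sgOTUD1 and that hold a motif of this pathway in the 250 bases before a RefSeq start site (build GRCh38.p14). All 10 genes had at least 1 such window, 16 windows in all. The shown bases stop where exons of protein-coding genes begin, and capitals mark matches on either strand to the motifs named below other than CCAAT alone.

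XBP1, chr22:28800598-28800819, minus strand: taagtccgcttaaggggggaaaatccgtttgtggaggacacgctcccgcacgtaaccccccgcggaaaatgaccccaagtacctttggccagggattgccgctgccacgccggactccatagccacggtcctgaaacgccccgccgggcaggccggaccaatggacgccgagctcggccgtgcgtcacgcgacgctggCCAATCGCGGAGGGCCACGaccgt

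DDIT3, chr12:57520518-57520709, minus strand: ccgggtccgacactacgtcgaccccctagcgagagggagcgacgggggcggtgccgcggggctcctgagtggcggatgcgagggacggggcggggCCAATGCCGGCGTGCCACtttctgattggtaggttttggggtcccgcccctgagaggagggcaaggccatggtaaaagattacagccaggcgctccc

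ATF3, chr1:212565157-212565333, plus strand: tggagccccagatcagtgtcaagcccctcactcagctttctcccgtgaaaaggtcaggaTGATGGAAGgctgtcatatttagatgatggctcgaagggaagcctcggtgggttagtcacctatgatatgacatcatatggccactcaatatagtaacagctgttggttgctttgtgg

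PPP1R15A, chr19:48872171-48872391, plus strand: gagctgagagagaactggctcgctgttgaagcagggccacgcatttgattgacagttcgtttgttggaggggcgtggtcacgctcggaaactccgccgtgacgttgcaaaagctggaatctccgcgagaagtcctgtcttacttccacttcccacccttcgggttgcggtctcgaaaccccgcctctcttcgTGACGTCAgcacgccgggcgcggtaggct

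PPP1R15B, chr1:204411818-204412067, minus strand: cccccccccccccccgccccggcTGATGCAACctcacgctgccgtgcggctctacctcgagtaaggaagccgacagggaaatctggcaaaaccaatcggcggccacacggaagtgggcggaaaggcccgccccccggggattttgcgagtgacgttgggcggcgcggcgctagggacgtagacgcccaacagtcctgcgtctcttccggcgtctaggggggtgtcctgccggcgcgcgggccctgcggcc

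XBP1 held the ER stress response element, ERSE (CCAAT, 9 bases of any kind, then CCACG), from -52 to -34 relative to the start site, which 0.0740% of 35116 promoter windows of the same length hold. DDIT3 held this element except for its last letter from -100 to -83, a form that 0.282% of windows hold and that was searched after the windows were seen. PPP1R15A held a cAMP response element (CRE, TGACGTCA) from -58 to -51, found in 1.65% of windows. PPP1R15B from -227 to -219 and ATF3 from -191 to -183 held the C/EBP-ATF element bound by ATF4 (CARE, TGATGNAAN), found in 3.13% of windows. DDIT3 also held an AP-1 element (TGANTCA, 6.57% of windows) from -241 to -235, outside the stretch shown. ERSE-II (ATTGG, 1 base of any kind, then CCACG; 0.0513% of windows), UPRE (TGACGTGG; 0.612%) and the heat shock element (GAA, TTC and GAA with 2 bases between neighbours; 0.441%) were found in none of the 16 windows, and the windows of ERN1, EIF2AK3, ATF6, ATF4 and TRIB3 held none of the motifs named so far. All 250 bases of the ERN1 window and of the ATF4 windows lay in exons of protein-coding genes, as did 174 in each TRIB3 window. For EIF2AK3 this held for 112 bases and for ATF6 for 26. CCAAT alone, which is part of ERSE, was in 32.0% of all windows, among them those of ERN1 and EIF2AK3. A match is a string of letters and not a binding site.

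The transcripts of the sensors ERN1 and EIF2AK3 were low and close to their control levels. ERN1 (chromosome 17, 64039142 to 64130819, minus strand, 23 exon blocks) was at 1.48, 1.36 and 1.45 FPKM in the libraries labelled sgOTUD1, against 1.36, 1.44 and 1.29 FPKM in sgNC libraries. These ranges overlapped, and the log2 fold change was 0.040 (SE 0.068). In bulk RNA, fewer cells with a transcript and less of it per cell cannot be told apart. EIF2AK3 (chromosome 2, 88556741 to 88627576, minus strand, 20 exon blocks) was at 2.96, 2.65 and 2.498 FPKM in the libraries labelled sgOTUD1, against 2.81, 2.53 and 2.16 FPKM in sgNC libraries. The highest sgNC library lay above 2 of the 3 libraries labelled sgOTUD1, and the log2 fold change was 0.084 (SE 0.087). ERN1 and EIF2AK3 rested on 205 to 282 reads per library. The sign of both fold changes turned with median-ratio rescaling and with TPM, to between -0.069 and -0.016. ERN1 moved the other way with the first correction for gene length, described below, to 0.20, where it was called higher.

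ATF6 was the sensor with a lower level. This gene (chromosome 1, 161766294 to 161964070, plus strand, 17 exon blocks) was at 7.31, 8.28 and 7.08 FPKM in the libraries labelled sgOTUD1, against 8.96, 9.45 and 8.86 FPKM in sgNC libraries. The groups did not overlap, with a log2 fold change of -0.24 (SE 0.061). The first length correction left -0.16, which no longer passed the threshold of the fit over all genes, whereas median-ratio rescaling gave -0.36 and TPM -0.41.

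The transcription factors downstream of the sensors were higher, and DDIT3 had the largest difference of the 10 genes. DDIT3 (chromosome 12, 57516588 to 57521737, minus strand) was at 81.6, 85.0 and 90.8 FPKM in the libraries labelled sgOTUD1, against 12.1, 14.6 and 14.1 FPKM in sgNC libraries. The lowest library labelled sgOTUD1 lay far above the highest sgNC library, and the ratio of means was 6.30 (log2 fold change 2.57, SE 0.074). A larger increase was found for 4 of the 14658 genes tested, and DDIT3 stood at the 99.97th percentile of fold changes. Its exons share 355 of 1307 bases with MARS, a gene on the opposite strand, and whether reads were counted by strand is not stated. MARS was at 25.9 ± 0.057 FPKM in the libraries labelled sgOTUD1 and 25.3 ± 0.059 FPKM in sgNC libraries (SD, n = 3 each), a log2 fold change of 0.034. DDIT3 exons also share 58 bases with MBD6 on the opposite strand (log2 fold change -0.042). On the same strand they share 105 bases with AC022506.1, which was at 0 FPKM in every library.

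ATF3, a repressor and activator of stress genes that ATF4 and other factors induce, was at 25.0, 23.9 and 24.7 FPKM in the libraries labelled sgOTUD1, against 10.3, 10.4 and 10.2 FPKM in sgNC libraries. The replicates were tight and did not overlap between groups (log2 fold change 1.17, SE 0.035). The gene lies on chromosome 1 from 212565334 to 212620777, plus strand, with 5 exon blocks.

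XBP1 and ATF4, whose products are made through mRNA splicing and through translational control, differed less. XBP1 (chromosome 22, 28794555 to 28800597, minus strand) was at 47.4, 46.8 and 49.5 FPKM in the libraries labelled sgOTUD1, against 32.2, 32.6 and 34.4 FPKM in sgNC libraries, a log2 fold change of 0.52 (SE 0.040). ATF4 (chromosome 22, 39519695 to 39522685, plus strand) was at 155, 159.9 and 161 FPKM in the libraries labelled sgOTUD1, against 114, 114 and 118 FPKM in sgNC libraries, a log2 fold change of 0.45 (SE 0.031). Neither gene overlapped between groups. Both have processed pseudogenes, whose levels were at most 1.54 FPKM in any library.

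The feedback genes spanned a wide range. PPP1R15A encodes GADD34, the inducible subunit that brings protein phosphatase 1 to eIF2 and so restores translation. It (chromosome 19, 48872392 to 48876057, plus strand) was at 159.6, 178 and 174 FPKM in the libraries labelled sgOTUD1, against 46.8, 48.5 and 50.8 FPKM in sgNC libraries. All 3 libraries labelled sgOTUD1 lay above the sgNC libraries, with a ratio of means of 3.50 (log2 fold change 1.79, SE 0.051). PPP1R15B, which encodes the constitutive subunit CReP of the same phosphatase, was at 33.1, 31.4 and 30.1 FPKM in the libraries labelled sgOTUD1, against 19.1, 19.3 and 19.3 FPKM in sgNC libraries (chromosome 1, 204403387 to 204411791, minus strand). Its groups did not overlap either, at a log2 fold change of 0.68 (SE 0.042).

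TRIB3, a pseudokinase induced by ATF4 and CHOP that restrains ATF4, stayed close to its control level. It (chromosome 20, 362835 to 397559, plus strand) was at 15.9, 15.4 and 14.3 FPKM in the libraries labelled sgOTUD1, against 13.8, 13.7 and 13.7 FPKM in sgNC libraries. The groups did not overlap, but the log2 fold change was 0.14 (SE 0.046), and its call was lost in 12 of 16 alternatives, among them the removal of any 1 sgNC library, of sgOTUD1 replicate 1 or of sgOTUD1 replicate 2 (log2 fold change 0.11 to 0.14).

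**Figure D1:**
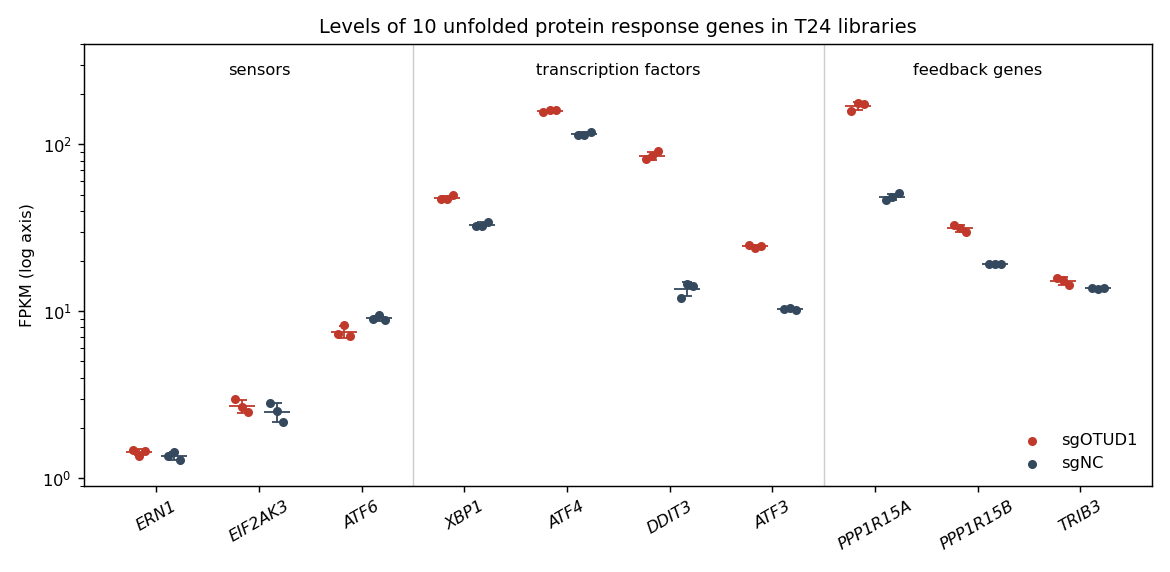
FPKM of the 10 genes in each library on a log axis, with libraries labelled sgOTUD1 left of sgNC libraries. Points are libraries, and bars are the mean and SD of 3. DDIT3 lay at 81.6 to 90.8 FPKM in libraries labelled sgOTUD1 and at 12.1 to 14.6 FPKM in sgNC libraries, whereas ERN1 and EIF2AK3 overlapped.

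In the fit over all genes, 7 of the 10 genes were higher in the libraries labelled sgOTUD1 (31.2% of all genes tested were), 1 was lower (24.7% of all genes were) and 2 were not called, at a limma adjusted p under 0.05. Groups did not overlap for 8 of the 10, against 64.0% of all genes tested. Since the genes were named with this comparison known, these counts are not evidence about the pathway. The median log2 fold change was 0.85 for the 4 transcription factors, 0.68 for the 3 feedback genes and 0.040 for the 3 sensors, against 0.031 for all genes tested. The share of called genes that were higher depended on scaling, with 55.9% for deposited FPKM, 39.6% with median-ratio rescaling and 36.8% with TPM, which moved the median log2 fold change of all genes to -0.10, against 0.031 for deposited FPKM. A filter at a mean of 5 FPKM gave 66.3%, with 3463 of the 7047 genes tested there higher and 1757 lower.

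The order of the levels also differed between the groups. In libraries labelled sgOTUD1, PPP1R15A and ATF4 came first with overlapping values, followed by DDIT3, XBP1, PPP1R15B, ATF3, TRIB3, ATF6, EIF2AK3 and ERN1, and no other neighbours overlapped. In sgNC libraries ATF4 came first, followed by PPP1R15A, XBP1, PPP1R15B, TRIB3, DDIT3, ATF3, ATF6, EIF2AK3 and ERN1, where only TRIB3 and DDIT3 overlapped. DDIT3 thus ranked 3 in libraries labelled sgOTUD1 and 6 in sgNC libraries. The sensors held ranks 8 to 10 in both groups.

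Fold change was related to exon length over all genes, which bears on a comparison of long sensor genes with shorter output genes. The sensors have exon lengths of 5434 to 10864 nt, the transcription factors 1307 to 4040 nt and the feedback genes 3093 to 5227 nt. Over nuclear protein-coding genes in 5 equal bins of exon length, the median log2 fold change was 0.26 in the shortest bin (up to 2896 nt) and -0.17 in the longest (from 8188 nt). In the shortest bin 55.6% of genes were called higher, and in the longest 14.3%. A first length correction, a spline of fold change on length subtracted within each library, left DDIT3 at 2.29, PPP1R15A at 1.62, ATF3 at 1.08, PPP1R15B at 0.66, XBP1 at 0.35 and ATF4 at 0.24. With it 7 of the 10 genes were higher and 0 lower, beside 26.3% and 28.0% of all genes tested. ERN1 was at 0.20 and passed the threshold there, whereas EIF2AK3 was at 0.072 and TRIB3 at -0.0040. A second correction, applied before the offset of the log scale, gave 2.14 for DDIT3, 0.13 for ATF4, 0.14 for ERN1, -0.19 for ATF6 and -0.079 for TRIB3. The medians were 0.71 for the transcription factors, 0.66 for the feedback genes and 0.072 for the sensors with the first correction, and 0.63, 0.60 and 0.029 with the second. The part of gene length in these differences beyond the corrections was not tested.

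**Figure D2:**
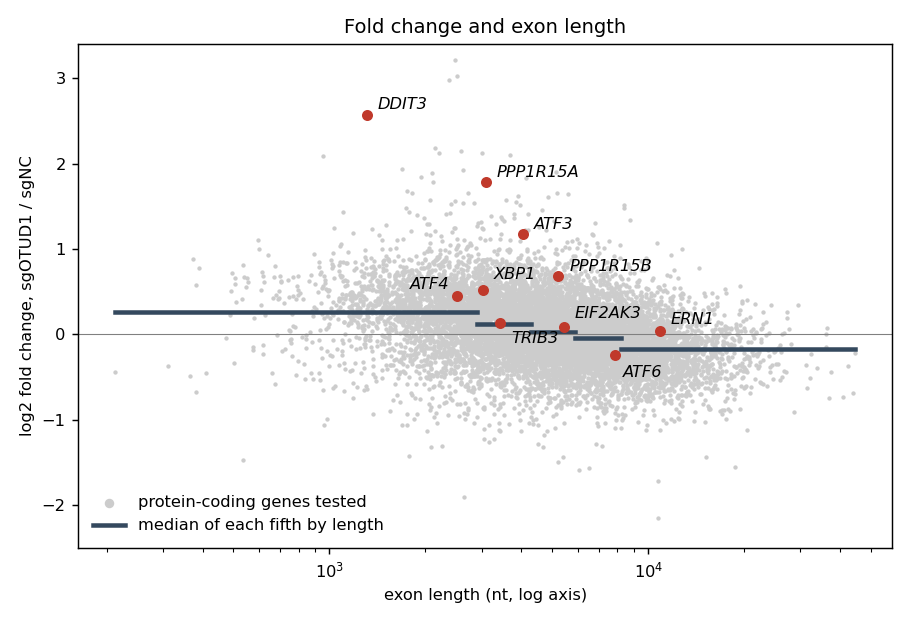
Log2 fold change of sgOTUD1 over sgNC libraries against exon length on a log axis, for nuclear protein-coding genes tested (grey) and the 10 genes (red). Bars are medians of 5 equal bins by length, from 0.26 to -0.17. DDIT3, PPP1R15A and ATF3 stand above genes of their length, and the sensors ATF6 and ERN1 lie in the fourth and the fifth bin by length.

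**Figure D3:**
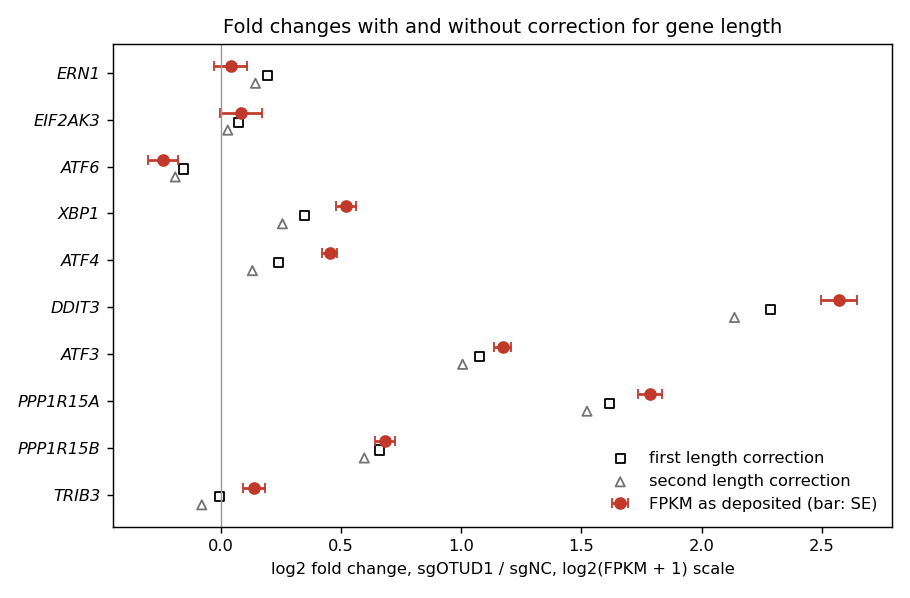
Log2 fold changes of the 10 genes on the log2(FPKM + 1) scale with deposited values (circles, bars are SE) and with both length corrections (squares and triangles). DDIT3 was at 2.57, 2.29 and 2.14, and ATF4 at 0.45, 0.24 and 0.13.

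Ratios of genes within a library do not depend on scaling between libraries, although length still bears on them. Their genes were chosen with the fold changes known, so a difference in a ratio is a description and no further evidence. DDIT3 was at 0.525, 0.531 and 0.565 of the level of its activator ATF4 in the libraries labelled sgOTUD1, against 0.106, 0.128 and 0.119 in sgNC libraries. This ratio did not overlap between groups and was 4.59 times as high. DDIT3 exceeded EIF2AK3 by a factor of 32.0 ± 4.4 in the libraries labelled sgOTUD1 and 5.55 ± 1.15 in sgNC libraries (SD, n = 3 each). The inducible eIF2 phosphatase subunit PPP1R15A stood at 5.42 ± 0.52 times the constitutive subunit PPP1R15B in the libraries labelled sgOTUD1 and at 2.53 ± 0.099 times in sgNC libraries. XBP1 was at 33.5 ± 1.23 times ERN1 in the libraries labelled sgOTUD1 and 24.4 ± 2.13 times in sgNC libraries, and ATF3 at 0.155 ± 0.0056 of ATF4 and 0.0892 ± 0.0026 of ATF4 in the same order of groups.

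**Figure D4:**
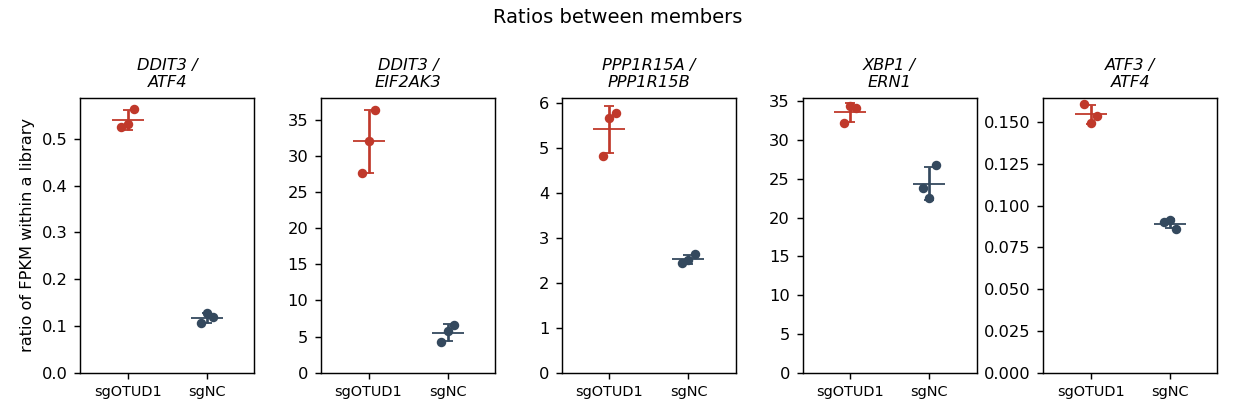
Ratios of FPKM between 2 genes within each library, with libraries labelled sgOTUD1 left of sgNC libraries. Points are libraries, and bars are the mean and SD of 3. None of the 5 ratios overlapped between groups, for genes chosen with the fold changes known.

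The 5 genes whose profiles over the 6 libraries lay closest to that of DDIT3, by Euclidean distance of centred log2 values, were GADD45B, HSPA6, HSPA1B, DNAJB1 and HBEGF. Distances were 0.514 to 0.604, and log2 fold changes were 2.10 to 3.02, against 2.57 for DDIT3. Such a distance takes in the difference between the groups, and variation shared within groups was not tested. HSPA6 and HSPA1B encode inducible HSP70 chaperones and DNAJB1 their co-chaperone. GADD45B, a gene of the stress and DNA damage response, averaged 102 FPKM in the libraries labelled sgOTUD1 and 21.9 FPKM in sgNC libraries. DNAJB1 averaged 195 FPKM in the libraries labelled sgOTUD1 and 44.6 FPKM in sgNC libraries.

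Other genes of the pathway came from 5 lists of 118 distinct genes, of which 110 were tested. The lists were written with earlier results of these data known. Counts of list genes here and below are therefore a description and not evidence about the pathway. In the libraries labelled sgOTUD1, 70 of these were higher and 17 lower, 63.6% and 15.5%, beside 31.2% and 24.7% of all genes tested. Their median log2 fold change was 0.23, against 0.031 for all genes. With TPM 46 of 112 genes were higher and 26 lower, beside 16.2% and 27.8% of all genes tested. More genes passed the filter with TPM, 19388 against 14658, so these shares cover more low genes. At an adjusted p under 0.01, 59 of 110 were higher and 9 lower, beside 23.4% and 17.1%. Among genes with a mean of at least 5 FPKM, 64 pathway genes were higher and 12 lower, beside 3463 and 1757 of all 7047 genes tested.

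Targets of ATF6 and XBP1 were mostly higher, 24 of 30 with 3 lower, beside 31.2% and 24.7% of all genes tested. Their median log2 fold change was 0.42. HERPUD1, which acts in ER-associated degradation, was at 49.3 ± 1.8 FPKM in the libraries labelled sgOTUD1 and 12.5 ± 0.11 FPKM in sgNC libraries (SD, n = 3 each; log2 fold change 1.90, limma adjusted p = 5.85e-07). HSPA5 encodes the ER chaperone BiP, which holds the sensors inactive, and was at 881 ± 1.9 FPKM in the libraries labelled sgOTUD1 and 287 ± 1.2 FPKM in sgNC libraries (log2 fold change 1.62, limma adjusted p = 2.74e-07). DNAJB9, a co-chaperone known to repress IRE1, was at 18.7 FPKM in the libraries labelled sgOTUD1 and 5.77 FPKM in sgNC libraries, and was named here after its values were seen. SEL1L and EDEM1, of the same degradation pathway as HERPUD1, were lower, at 15.7 and 7.71 FPKM in the libraries labelled sgOTUD1 and 19.4 and 9.26 FPKM in sgNC libraries. The call of SEL1L ended with both length corrections (log2 fold change -0.16 and -0.17, against -0.29). With TPM SEL1L was at -0.45 and EDEM1 at -0.40, against -0.23 for EDEM1 without it.

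Targets of ATF4 and CHOP were higher in 18 and lower in 6 of 27, beside 31.2% and 24.7% of all genes tested. Their median log2 fold change was 0.29. DDIT4, an inhibitor of mTORC1, was at 352 ± 9.2 FPKM in the libraries labelled sgOTUD1 and 175 ± 11.3 FPKM in sgNC libraries (SD, n = 3 each; log2 fold change 1.01, limma adjusted p = 1.11e-05). BBC3, which encodes the cell death protein PUMA, was at 21.6 ± 1.7 FPKM in the libraries labelled sgOTUD1 and 11.2 ± 0.33 FPKM in sgNC libraries (log2 fold change 0.89, limma adjusted p = 3.32e-05). TNFRSF10B, a death receptor gene induced by CHOP and named after its values were seen, was at 35.7 FPKM in the libraries labelled sgOTUD1 and 24.2 FPKM in sgNC libraries. CHAC1, which encodes an enzyme that degrades glutathione and is a target of ATF4, ATF3 and CHOP, went the other way at 3.92 ± 0.24 FPKM in the libraries labelled sgOTUD1 and 7.68 ± 0.71 FPKM in sgNC libraries (log2 fold change -0.82, limma adjusted p = 0.000101). GDF15, a stress cytokine gene, was at 1.06 FPKM in the libraries labelled sgOTUD1 and 1.86 FPKM in sgNC libraries. With the first length correction CHAC1 was at -1.06 and GDF15 at -0.72, against -0.48 for GDF15 without it, and the second left DDIT4 at 0.64.

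A list of eIF2 subunits, kinases and exchange factor eIF2B, which also holds catalytic phosphatase subunits and other factors that act with them, was higher in 15 and lower in 3 of 20 genes, at a median log2 fold change of 0.25. Of all genes tested, 31.2% were higher and 24.7% lower. With TPM 7 were higher and 5 lower, beside 16.2% and 27.8% of the 19388 genes tested there. With median-ratio rescaling 10 were higher and 4 lower, beside 22.3% and 34.0% of all genes tested. EIF2A, which encodes an initiation factor that is not part of eIF2, was at 26.2 FPKM in the libraries labelled sgOTUD1 and 18.2 FPKM in sgNC libraries. PPP1CC, a catalytic subunit that the products of PPP1R15A and PPP1R15B recruit, was at 31.7 FPKM in the libraries labelled sgOTUD1 and 22.3 FPKM in sgNC libraries. Lower genes were QRICH1, a transcriptional regulator downstream of PERK (8.24 FPKM in the libraries labelled sgOTUD1 and 13.7 FPKM in sgNC libraries), and EIF2AK4, which encodes the amino acid sensor GCN2 (6.84 and 8.73 FPKM in the same order). The log2 fold change of EIF2AK4, -0.31, was -0.14 with the first length correction, -0.12 with the second and -0.49 with TPM. Of the other eIF2 kinases, EIF2AK1 was called higher (log2 fold change 0.16) and EIF2AK2 lower (-0.20), both named after their values were seen, and EIF2AK2 was at -0.049 with the first length correction.

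Genes that regulate or process the sensors were higher in 12 and lower in 2 of 22 tested, at a median log2 fold change of 0.16. The shares of all genes tested were 31.2% higher and 24.7% lower. HSPA5 had the largest increase of this list as well as the second largest among the targets of ATF6 and XBP1. NFYA, a subunit of the CCAAT-binding factor that acts with ATF6 on ERSE, was at 17.2 FPKM in the libraries labelled sgOTUD1 and 10.997 FPKM in sgNC libraries, whereas the subunit gene NFYC was at 4.95 and 5.57 FPKM in the same order. The call of NFYC (log2 fold change -0.14) ended without any 1 sgNC library, without sgOTUD1 replicate 2 or 3, with the replicate block and without a filter. DAB2IP, which encodes a scaffold of IRE1 signalling, was at 12.5 FPKM in the libraries labelled sgOTUD1 and 18.1 FPKM in sgNC libraries. MBTPS1 and MBTPS2, the proteases that cut ATF6, and RTCB, the ligase that joins XBP1 mRNA, were not called, at log2 fold changes of -0.10, -0.15 and -0.073, and were named after their values were seen. With TPM 7 genes of this list were higher and 5 lower, beside 16.2% and 27.8% of the 19388 genes tested there.

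Partner factors of the bZIP family and ER-bound CREB factors were higher in 7 and lower in 4 of 18, at a median log2 fold change of 0.0098, beside 31.2% and 24.7% of all genes tested. NFIL3 and CEBPD, a repressor and an activator of the bZIP family, were at 31.9 and 31.6 FPKM in the libraries labelled sgOTUD1 and 15.7 and 16.4 FPKM in sgNC libraries. CREB3L4, an ER-bound factor, was at 3.74 FPKM in the libraries labelled sgOTUD1 and 5.42 FPKM in sgNC libraries, and ATF5, a target of ATF4 and CHOP, at 2.62 and 3.74 FPKM in the same order. With median-ratio rescaling 4 were higher and 7 lower, beside 22.3% and 34.0% of all genes tested. The second length correction left NFIL3 at a log2 fold change of 0.62 (0.97 without it), CEBPD at 0.56 (0.91) and CREB3L4 at -0.67 (-0.44).

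**Figure D5:**
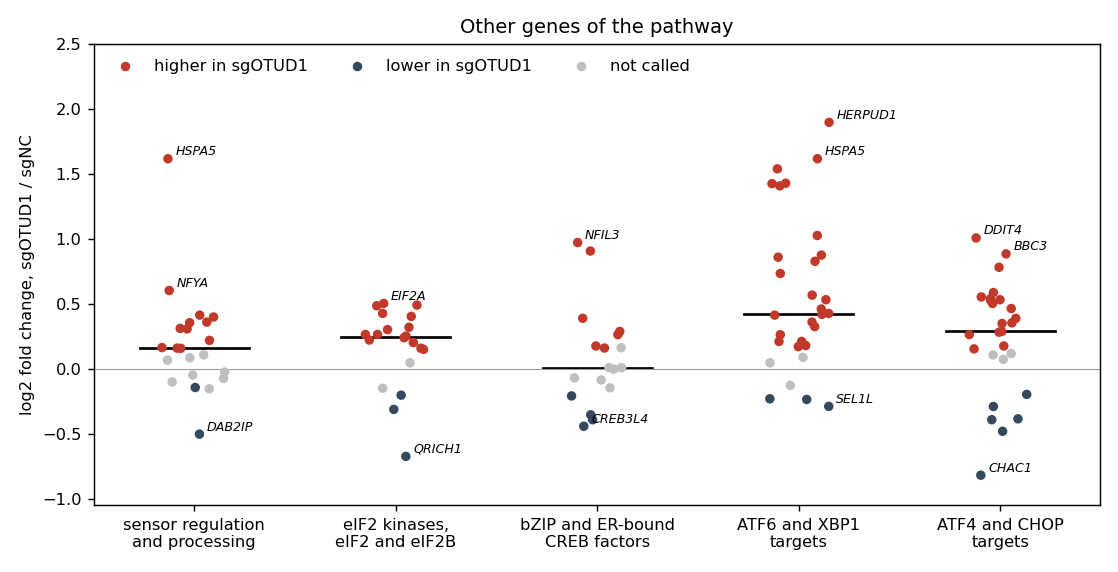
Log2 fold change of sgOTUD1 over sgNC libraries for each tested gene of 5 pathway lists. Red and dark points passed a limma adjusted p under 0.05, grey points did not, and black lines are medians. Targets of ATF6 and XBP1 reached 1.90 for HERPUD1, and CHAC1 among the targets of ATF4 and CHOP was at -0.82.

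Groups of genes outside the pathway moved with the same comparison, in which 31.2% of all genes tested were higher and 24.7% lower. All 14 heat shock genes on the list used here were higher in the libraries labelled sgOTUD1, at a median log2 fold change of 1.24. With median-ratio rescaling 13 were higher, beside 22.3% of all genes tested, and with TPM 13, beside 16.2%. The first length correction left a median of 0.98. HSPA1A and HSPA1B, near-identical HSP70 genes whose reads cannot be divided with certainty, were at 320.2 and 207 FPKM in the libraries labelled sgOTUD1 and 33.9 and 24.7 FPKM in sgNC libraries. All 13 mRNAs of the mitochondrial genome were lower, at a median log2 fold change of -1.26 and a summed level of 17268 to 18199 FPKM in the libraries labelled sgOTUD1 and 32148 to 34672 FPKM in sgNC libraries. MT-ATP8 and MT-ND6, which encode subunits of ATP synthase and complex I, were at 16.2 and 295 FPKM in the libraries labelled sgOTUD1 and 84.1 and 1168 FPKM in sgNC libraries. The part of this difference in the results for the 10 genes was not tested.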

How the data were processed

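RNA sequencing covered 3 libraries labelled sgOTUD1 and 3 labelled sgNC, grouped by sample titles. Gene levels were deposited by the authors as FPKM, which the column names state. Per the submitters' processing notes, the tools included DESeq2 1.20.0 and featureCounts 1.5.0-p3, and the build was hg38. No aligner or strand setting is given. Deposited FPKM times the union exon length of GENCODE 29 was a whole multiple of 1 step in each library (all values, within 0.001 reads), so reads could be recovered. Replicates differed beyond sampling noise.

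Genes with a mean of at least 0.5 FPKM were tested with limma 3.58.1 in R 4.3.3 (trend and robust options, log2(FPKM + 1), two-sided, Benjamini-Hochberg over 14658 genes). Fold changes on this scale understate those of low genes. The first length correction subtracted, in each library, a natural spline (4 degrees of freedom) of log2 exon length fitted to nuclear protein-coding genes, and the second was fitted at a mean of at least 5 FPKM and divided out before the offset. Fits were also run on simulated reads with 200 changed genes. Neither a length trend nor a scaling difference between groups was simulated, so that run cannot judge how the fits handle them. The 10 genes, the lists and the alternatives were chosen with earlier results of these data known. Named list genes are the 2 largest increases and 2 largest decreases per list among called genes with no overlap between groups. Markers of cell types were given as levels only. Tables were read with Python 3.11.15 and pandas 2.3.3.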

Additional observations from a re-analysis of the deposited data

How the results depend on the processing

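DDIT3, ATF3, PPP1R15A, PPP1R15B, XBP1 and ATF4 kept their direction and their call in all 16 alternative fits at an adjusted p under 0.05, with log2 fold changes of 2.14 to 2.66, 1.01 to 1.25, 1.52 to 1.83, 0.55 to 0.72, 0.26 to 0.55 and 0.13 to 0.47. ERN1, not called in the other 14 fits that tested it, was called higher with the first length correction (0.20), and EIF2AK3 was called in none of 15. The signs of both turned with median-ratio rescaling (-0.041 and -0.016) and TPM (-0.069 and -0.031), and that of TRIB3 with TPM (-0.0047), the first length correction (-0.0040) and the second (-0.079). The 1 lower gene, ATF6, was not called with the first length correction or at an adjusted p under 0.01, which leaves 0 lower genes. The lower genes over the whole table numbered 1757 at a mean of at least 5 FPKM, against 3615, where fewer genes were tested. Pathway genes were 46 higher and 26 lower with TPM, and 9 were lower at an adjusted p under 0.01, against 70 and 17. OTUD1 was at 0.17 to 0.24 when 1 library was left out, 0.071 with median-ratio rescaling, 0.061 with TPM and, for the length corrections, 0.022 (first) and -0.062 (second), and was not called in these 4 fits. Apart from fewer genes or libraries tested, the cause was not tested. Replicate numbers did not pair the libraries (correlations of deviations from the group means from -0.051 to 0.0016). With the replicate block, 4431 genes were higher and 3360 lower, and 6 of the 10 genes were higher, without TRIB3. Limma-voom on the recovered reads called 4854 genes higher and 4007 lower. It used the library size of the deposited FPKM, so it does not test that scaling. ERN1 and EIF2AK3 had the fewest reads of the 10 genes within each library, 205 to 282, and the part of depth in their spread was not tested.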
